A study of Mus musculus with 30 samples.

Results

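The 10 genes named for MHC and antigen presentation were looked up in the spinal RNA-seq data, and 7 of the 10 had a row in the table of 16995 genes: the class I heavy chains H2-K1 and H2-D1, their light chain B2m, the peptide loading genes Tap1 and Tapbp, the immunoproteasome subunit Psmb8 and the class II invariant chain Cd74. The class II chains H2-Aa, H2-Ab1 and H2-Eb1 had no row and were not analysed here. The rule that picks them uses gene names and no measured value, but the list was drawn up with earlier results of these data known. RNA came from the intermediate laminae of the cervical cord (C5/C6, stroke-denervated side) of adult female C57BL/6 mice (C57BL/6J in the study's methods) after a unilateral photothrombotic stroke of the sensorimotor cortex, a lesion made by illuminating the skull after a light-sensitive dye. Tissue of stroke animals was collected 4, 7, 14, 28 or 42 days post injury (dpi), and sham animals (called Ctrl in the labels) were operated without illumination. The 29 animals with values were 5 per group, except 4 at 4 dpi, where 1 labelled animal has no column of values. The study's methods say that a sample of the 4 dpi group was left out as an outlier, so the values at 4 dpi are those of a group without it. Each sample was a block of trimmed tissue that holds many cell types, so fewer cells of a type and less RNA per cell cannot be told apart.

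MHC class I molecules sit on most nucleated cells and show short peptides from the cell's own proteins to CD8+ T cells. The peptides are made by the proteasome, or by the immunoproteasome after interferon signals. They are carried into the endoplasmic reticulum by the TAP transporter and fitted into the heavy chain and B2m with the help of tapasin (Tapbp). Class II molecules show peptides from engulfed material to CD4+ T cells. They are typical of professional antigen presenting cells, in which the invariant chain Cd74 guards the groove until cathepsins degrade it. In the central nervous system microglia are the main resident cells that can raise both pathways, and class I genes are also made by neurons and endothelium.

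The start regions are shown for the 2 class I heavy chains and for B2m, the light chain they pair with. The sequences are RefSeq's, on the GRCm38.p6 build, read 5′ to 3′ on the strand of the gene. Promoter windows of 250 bases before to 50 bases after the start were searched for 8 of the 10 genes, Cd74 not among them. Capitals mark matches to the 4 motifs searched on both strands: GGGGATTCC, a kappa-B-like site, GAAANNGAAA, an ISRE-like site, TGACG, the core of a CRE-like site, and CCAAT, here read as its reverse complement. The stretches lie at chr17:34000349-34000547 (minus strand) for H2-K1 and chr2:122147487-122147685 (plus strand) for B2m, and for H2-D1 only 30 bases around the kappa-B-like site are given, at chr17:35262913-35262942 (plus strand).
H2-K1: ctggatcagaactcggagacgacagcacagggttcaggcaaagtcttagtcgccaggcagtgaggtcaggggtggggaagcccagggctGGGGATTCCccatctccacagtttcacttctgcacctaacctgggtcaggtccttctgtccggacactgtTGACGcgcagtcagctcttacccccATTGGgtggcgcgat
H2-D1: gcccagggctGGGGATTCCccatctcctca
B2m: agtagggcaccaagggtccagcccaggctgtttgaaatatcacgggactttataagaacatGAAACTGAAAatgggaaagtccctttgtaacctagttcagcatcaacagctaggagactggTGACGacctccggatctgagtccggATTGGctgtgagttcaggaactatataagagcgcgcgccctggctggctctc

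Distances are counted from the start of the first RefSeq window of each gene, which for H2-D1 lies inside the interval that the authors' table gives for the gene, since annotations differ in where it starts. The kappa-B-like letters began 111 bases before this start in H2-K1 (125 in its other window) and 171 bases before it in H2-D1, and 0.25% of 32851 mouse promoter windows of the same length held them. From this site to the reversed CCAAT the 2 heavy chain promoters matched at 89 of 100 bases. B2m lacked those letters in its window and had the ISRE-like letters 139 to 130 bases before its start, which 3.44% of windows held. All 3 genes carried TGACG (20.81% of windows) followed by a reversed CCAAT (37.41% of windows). The class II chain H2-Aa, which had no row of values, carried the same order. Its TGACG lay 74 to 70 and its reversed CCAAT 48 to 44 bases before the start. These matches describe letters and not binding.

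Values below are the authors' normalized CPM, a scale meant for comparing a gene between animals. That it does so is assumed: an animal's values sum to between 714597 and 2256910, and other scalings turned some signs, as given in the last section. Per kilobase of the longest transcript, the mean level in sham animals was highest for B2m (34.5 normalized CPM per kilobase), then H2-D1 (15.4), H2-K1 (6.50), Tapbp (5.18), Tap1 (0.460), Cd74 (0.383) and Psmb8 (0.367). The sham animals' values per kilobase did not overlap between B2m, H2-D1 and H2-K1, but they overlapped between H2-K1 (5.23 to 7.36) and Tapbp (4.93 to 5.52). The same held within Tap1, Cd74 and Psmb8, which lay between 0.157 and 0.563. Cd74 and Psmb8 thus sat near the bottom of the table, with 7.63% and 11.8% of all genes at or below their mean value, where the rounding step of 0.1 is a large part of a value.

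H2-K1 and H2-D1 encode the polymorphic heavy chains that hold the peptide. H2-K1 (ENSMUSG00000061232, chr17:33996017-34000333, mm10) read 9.8, 11.3, 12.4, 13.6 and 13.8 in the sham animals, with 19.3, 16.9, 15.1 and 17.6 in those of 4 dpi and 14.6, 16.0, 14.8, 13.9 and 16.3 in those of 7 dpi. The 14 dpi animals read 16.0, 18.2, 14.7, 20.1 and 11.8, the 28 dpi animals 13.4, 9.7, 16.8, 10.4 and 10.2, and the 42 dpi animals 17.5, 12.6, 13.1, 12.6 and 14.1. All animals of 4 and 7 dpi lay above all sham animals, while from 14 dpi on the groups overlapped with sham. The log2 difference from sham was 0.49 ± 0.14 (SE) at 4 dpi (limma, Benjamini-Hochberg adjusted p = 0.275, exact permutation p = 0.00794) and 0.31 ± 0.13 at 7 dpi (limma, adjusted p = 0.833, exact permutation p = 0.00794). Neither passed the adjusted test, and 0.00794 is the smallest p that these group sizes allow. At 28 dpi the log2 difference was -0.03 ± 0.13.

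H2-D1 (ENSMUSG00000073411, chr17:35262730-35267499) read 28.1, 28.9, 38.7, 33.9 and 32.1 in sham, 42.3, 36.2, 32.2 and 38.9 at 4 dpi, and 35.1, 37.9, 31.8, 38.6 and 37.3 at 7 dpi. At 14 dpi its values were 37.0, 44.2, 41.1, 43.2 and 37.3, at 28 dpi 27.9, 27.7, 35.0, 26.6 and 22.9, and at 42 dpi 37.9, 32.0, 34.4, 30.0 and 30.2. Every stroke group overlapped with sham. At 14 dpi 3 of 5 animals lay above the sham range and the others within it, and at 28 dpi 4 of 5 lay below it and the other (A4-1) within it. The log2 difference from sham was 0.33 ± 0.10 at 14 dpi (limma, adjusted p = 0.381) and -0.21 ± 0.10 at 28 dpi (limma, adjusted p = 0.109). The heavy chains share sequence: 13.8% of the 31-base words of H2-D1 occur in H2-K1 and 26.9% in some other gene, so reads could have been split between family members.

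B2m encodes beta-2-microglobulin, the invariant light chain without which class I molecules are unstable at the surface. The gene (ENSMUSG00000060802, chr2:122147686-122153083) shares none of its 31-base words with another gene. It read 22.1, 26.5, 35.6, 30.4 and 33.7 in sham, 47.1, 44.1, 35.7 and 43.7 at 4 dpi, and 35.4, 43.5, 33.8, 42.1 and 37.0 at 7 dpi. At 14 dpi it read 43.5, 42.2, 44.2, 53.6 and 41.0, at 28 dpi 36.4, 26.5, 36.6, 22.6 and 18.5, and at 42 dpi 41.1, 33.4, 36.3, 36.8 and 35.1. The 4 dpi and 14 dpi animals all lay above all sham animals, whereas the 28 dpi animals spanned the sham range, with 2 above its highest value and 1 below its lowest. The log2 difference from sham was 0.53 ± 0.15 at 4 dpi (limma, adjusted p = 0.248, exact permutation p = 0.0159) and 0.60 ± 0.14 at 14 dpi (limma, adjusted p = 0.198, exact permutation p = 0.00794). It was -0.10 ± 0.14 at 28 dpi and 0.31 ± 0.14 at 42 dpi (limma, adjusted p = 0.607 and 0.282). No comparison of B2m with sham passed the adjusted test.

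**Figure D1:**
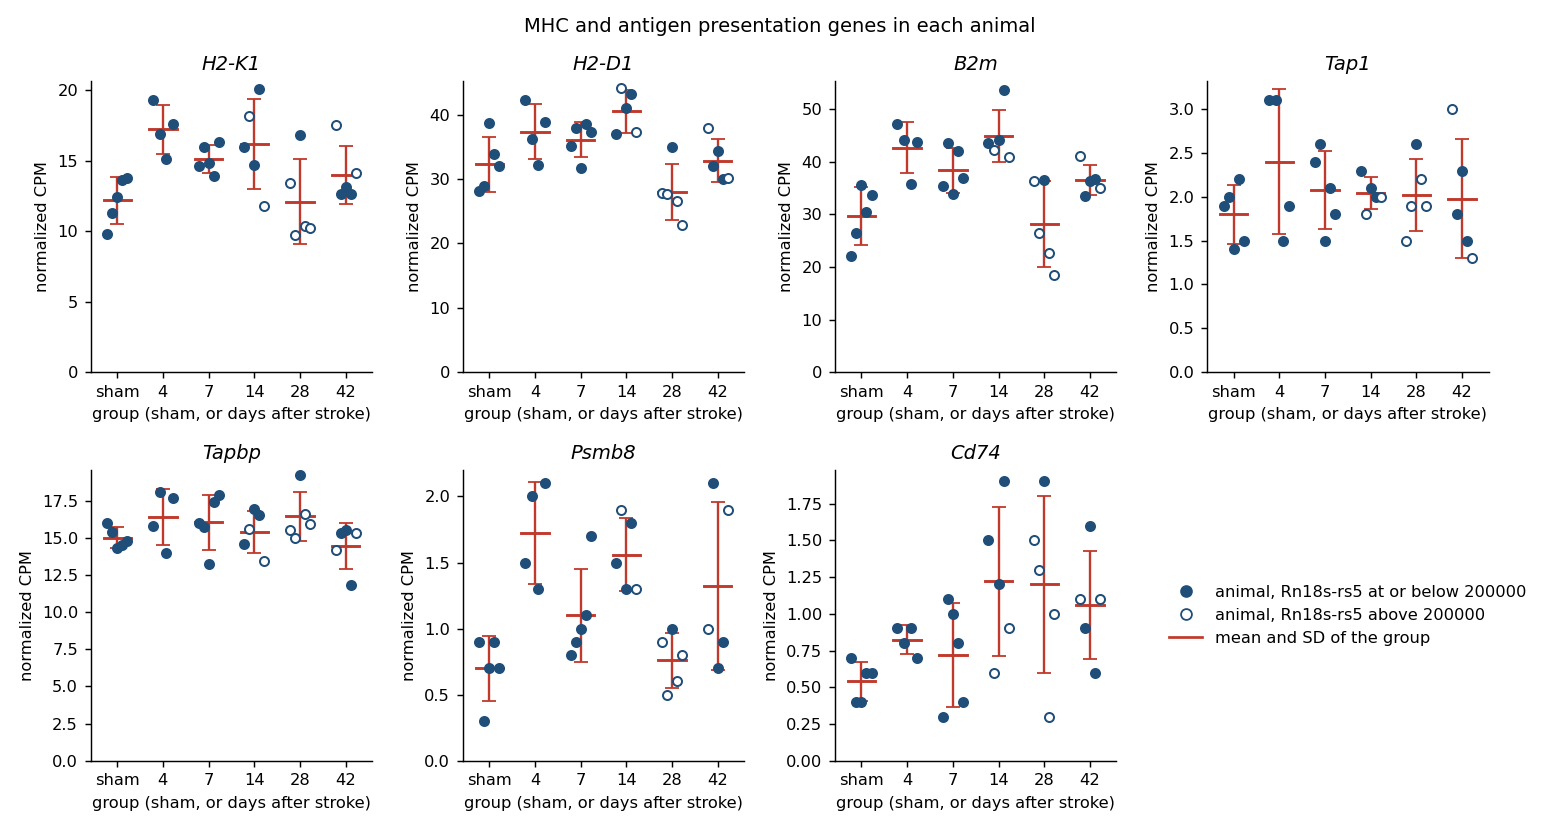
Normalized CPM (y axis, from 0) of the 7 genes in each animal, by group (x axis, sham or days after stroke). Points are animals, open where the ribosomal RNA gene Rn18s-rs5 was above 200000, and red lines give the group mean and SD. B2m in the 14 dpi animals sits between 41.0 and 53.6, above all sham animals.

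Psmb8 encodes an immunoproteasome subunit that replaces the constitutive subunit Psmb5 and alters which peptides are cut. Psmb8 (chr17:34197721-34201454) was low throughout, at 0.9, 0.3, 0.7, 0.9 and 0.7 in sham animals. The 4 dpi animals read 1.5, 2.0, 1.3 and 2.1, the 7 dpi animals 0.8, 0.9, 1.0, 1.1 and 1.7, and the 14 dpi animals 1.5, 1.9, 1.3, 1.8 and 1.3. All animals of 4 and 14 dpi lay above the sham range, and those of 7 dpi overlapped with it. The values were 0.9, 0.5, 1.0, 0.6 and 0.8 at 28 dpi and 1.0, 2.1, 0.7, 0.9 and 1.9 at 42 dpi. Its log2 difference from sham was the largest of the 7 genes at 4 dpi, 0.90 ± 0.22 (limma, adjusted p = 0.104, exact permutation p = 0.00794), and was 0.80 ± 0.20 at 14 dpi (limma, adjusted p = 0.330, exact permutation p = 0.00794). At 28 dpi it was 0.08 ± 0.20. These differences are on the log2(value + 0.5) scale, which understates the change of so low a gene. Of the 31-base words of Psmb8, 13.0% occur in Gm20496 on the opposite strand, and the library kit did not mark strand.

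Tap1 and Tapbp, which carry peptides into the endoplasmic reticulum and hold the empty class I molecule beside the transporter, were not called at any time. Tap1 (chr17:34187553-34197225) read 1.9, 2.0, 1.4, 2.2 and 1.5 in sham and between 1.3 and 3.1 in the stroke animals, with log2 differences from sham of 0.08 to 0.30 (limma, adjusted p of 0.625 or higher). Tapbp (chr17:33915899-33929288) read 14.3 to 16.0 in sham and 11.8 to 19.2 after stroke, with log2 differences of -0.06 to 0.12 (limma, adjusted p of 0.320 or higher). Of the words of Tapbp, 22.1% are shared with Gm19412 on the opposite strand, and the library kit did not mark strand, so reads of the pair cannot be told apart. A test that misses the threshold does not show that Tap1 and Tapbp were unchanged.

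Cd74 encodes the invariant chain of class II. Sham animals read 0.7, 0.4, 0.4, 0.6 and 0.6, the 4 dpi animals 0.9, 0.8, 0.9 and 0.7, and the 7 dpi animals 0.3, 1.1, 1.0, 0.8 and 0.4. Later values were 1.5, 0.6, 1.2, 1.9 and 0.9 in the 14 dpi group, 1.5, 1.3, 1.9, 0.3 and 1.0 in the 28 dpi group and 1.1, 0.9, 1.6, 0.6 and 1.1 in the 42 dpi group. In each of these 3 groups 4 of 5 animals lay above the sham range and the other lay within or below it. The mean was 0.54 in sham and 1.22, 1.20 and 1.06 at 14, 28 and 42 dpi. The log2 difference from sham was 0.68 ± 0.24 at 14 dpi (limma, adjusted p = 0.387), 0.63 ± 0.24 at 28 dpi (limma, adjusted p = 0.0580) and 0.56 ± 0.24 at 42 dpi (limma, adjusted p = 0.276). As for Psmb8, the log2(value + 0.5) scale understates the change of so low a gene. Without the 28 dpi animal A4-3, which had the value 0.3, the log2 difference at 28 dpi was 0.88 (limma, adjusted p = 0.0108). It was 1.07 with the ribosomal RNA gene Rn18s-rs5 as a covariate (limma, adjusted p = 0.0567), and it passed both limits with median centring (0.66), the label unit as a random block (0.63) and the length and GC correction (0.69). The covariate is described with the step from 14 to 28 dpi.

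Counted over the 7 genes, none was significantly differentially expressed (an SDEG here passes an adjusted p of 0.05 and exceeds a 1.5-fold difference) against sham at any time in the fit of all 29 animals. The paper, which worked from read counts, names CD74 among the SDEGs of its early upregulated cluster. In the present fit Cd74 differed from sham by 0.36 ± 0.26 at 4 dpi and was not called. The share of all genes that were SDEGs was 0.0941%, 0.0294%, 0.00588%, 4.64% and 0.0235% in the order of the time points. At an unadjusted limma p under 0.05 the counts were 4, 3, 5, 2 and 3 of 7, beside 5.14%, 5.84%, 11.6%, 38.5% and 14.8% of all genes. The median log2 difference of the 7 genes was 0.36, 0.19, 0.38, 0.08 and 0.19 in the same order, beside 0.01, 0.00, -0.01, 0.00 and -0.01 over all genes. All stroke animals lay above all sham animals for 3 of 7 at 4 dpi (H2-K1, B2m and Psmb8; background 1.09%), 1 of 7 at 7 dpi (H2-K1; background 0.388%) and 2 of 7 at 14 dpi (B2m and Psmb8; background 1.11%). For 28 and 42 dpi the count was 0 of 7, with backgrounds of 6.15% and 2.21%. The mean of the 5 stroke groups against sham called 0 of all genes at adjusted p under 0.05 (limma), and 1466 genes at an unadjusted p under 0.05.

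**Figure D2:**
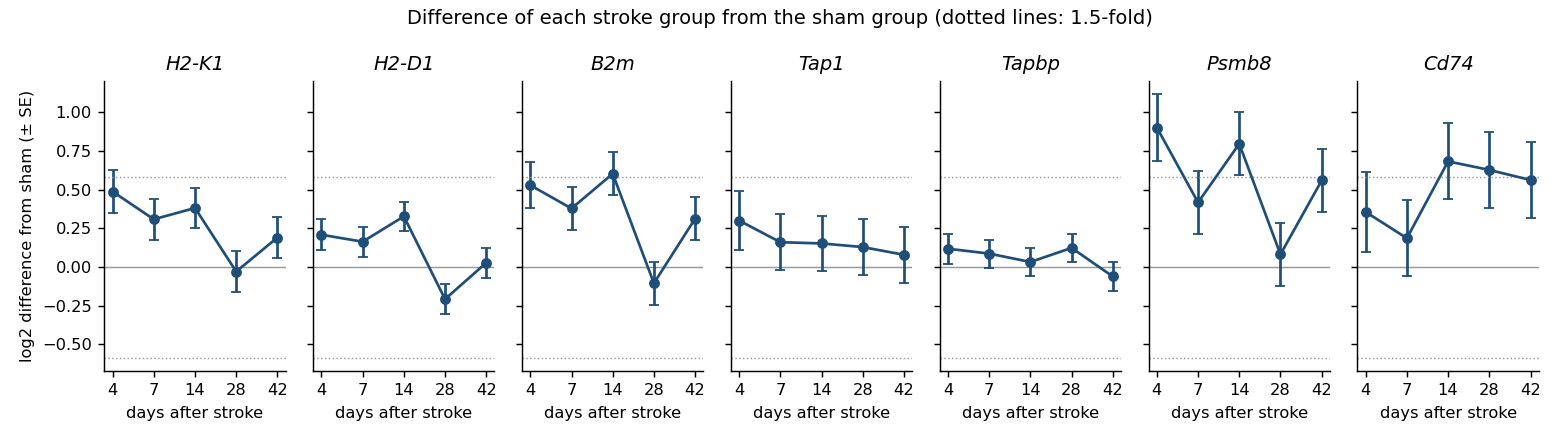
Log2 difference of each stroke group from sham (y axis, ± SE) against days after stroke (x axis, time points evenly spaced) for the 7 genes, with dotted lines at a fold of 1.5. B2m and Psmb8 are highest at 4 and 14 dpi, at 0.53 and 0.60 and at 0.90 and 0.80, and are near 0 at 28 dpi.

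Over all 6 groups at once, 4 of the 7 genes varied (limma F test, adjusted p under 0.05), where 31.6% of all genes did. These were B2m (adjusted p = 0.00119), H2-D1 (adjusted p = 0.00173), Psmb8 (adjusted p = 0.00429) and H2-K1 (adjusted p = 0.0150), while Cd74, Tapbp and Tap1 did not pass (limma, adjusted p = 0.128, 0.437 and 0.804). Neighbouring time points were then compared. Between 4 and 7 dpi and between 7 and 14 dpi limma called 0 of all genes, with 495 and 1010 at an unadjusted p under 0.05.

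From 14 to 28 dpi 4 of the 7 genes fell by adjusted p, the only neighbouring step at which any of them passed. B2m fell from a mean of 44.9 ± 5.02 (SD, n = 5) to 28.1 ± 8.16, a log2 difference of -0.71 ± 0.14 (SE; limma, adjusted p = 0.000217), with no overlap between the groups (exact permutation p = 0.00794). Psmb8 fell from 1.56 ± 0.279 to 0.76 ± 0.207, a log2 difference of -0.71 ± 0.20 (limma, adjusted p = 0.00565), again with no overlap. H2-D1 fell from 40.6 ± 3.31 to 28.0 ± 4.39, a log2 difference of -0.54 ± 0.10 (limma, adjusted p = 9.8e-05), without overlap but below the 1.5-fold limit. H2-K1 fell by less, with a log2 difference of -0.41 ± 0.13 (limma, adjusted p = 0.0132) and overlapping groups. Cd74, Tap1 and Tapbp had log2 differences of -0.06, -0.02 and 0.09 and did not pass. By both limits 2 of 7 were SDEGs, both lower, beside 4.22% of all genes that were SDEGs lower at 28 dpi (11.8% in either direction). By adjusted p alone the 4 of 7 stood beside 21.9% of all genes that were lower, and 3 of 7 had every 28 dpi animal below every 14 dpi animal, beside 11.8%. The median log2 difference was -0.41 over the 7 genes and 0.02 over all genes. Without the 28 dpi animal A4-4 the value of B2m was -0.57, under the fold limit, and without A4-1 that of H2-D1 was -0.62 and passed it. H2-K1 did not pass without the 14 dpi animal A6-2 (-0.33; limma, adjusted p = 0.0554), without the 28 dpi animal A3-3 (-0.34; limma, adjusted p = 0.0512) or in a fit of only the 2 groups (limma, adjusted p = 0.0507). Against 28 dpi, none of the 7 was an SDEG at 42 dpi, where 0.224% of all genes were. B2m had the log2 difference 0.42 ± 0.14 there (limma, adjusted p = 0.0908).

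Residual ribosomal RNA also differed between the animals of these groups. Rn18s-rs5, an 18S ribosomal RNA gene, read 30321 to 52929 in sham, 32754 to 817780 at 14 dpi and 44755 to 779160 at 28 dpi, and it was above 200000 in 2 of 5, 4 of 5 and 2 of 5 animals at 14, 28 and 42 dpi and in none before. Among the 28 dpi animals, B2m averaged 26.0 (18.5 to 36.4) in the 4 above this limit and was 36.6 in the other. H2-D1 averaged 26.3 (22.9 to 27.9) in those 4 and was 35.0 in the other. At 14 dpi the same split gave 41.6 against 47.1 for B2m and 40.8 against 40.4 for H2-D1. With all 8 such animals left out, 1 animal (A4-1) remained at 28 dpi against 3 at 14 dpi, and its spread was assumed to be that of the other groups, so values rather than lost calls are to be read. The log2 difference from 14 dpi was then -0.35 for B2m (limma, adjusted p = 0.300), -0.43 for Psmb8 (limma, adjusted p = 0.525), -0.20 for H2-D1 (limma, adjusted p = 0.461) and 0.00 for H2-K1. With the log2 value of Rn18s-rs5 as a covariate it was -0.66 for B2m (limma, adjusted p = 0.000719) and -0.74 for Psmb8 (limma, adjusted p = 0.00737), both still SDEGs. The part of ribosomal RNA in this step was not tested beyond these values.

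The other genes of the pathway, 53 of 70 listed with a row, were compared in the same fit. Of the constitutive proteasome subunits that the immunoproteasome subunits replace, 3 of 3 fell from 14 to 28 dpi: Psmb5 (-0.74), Psmb6 (-0.78) and Psmb7 (-0.65) on the log2 scale, all SDEGs, beside 4.22% of all genes that were SDEGs lower. In the list of class I peptide supply and loading 2 of 9 measured genes were SDEGs, both lower, beside the same 4.22%: Psmb10 (-0.65), another immunoproteasome subunit, and Psme2 (-0.77), part of the PA28 activator of the proteasome. Of the 31-base words of Psmb5, 71.7% occur in other genes (59.8% in Gm3375), and 33.5% of those of Psme2 occur in Psme2b, so the values of both are uncertain. Psmb10 read 13.7, 15.7, 12.7, 14.3 and 12.3 in the 14 dpi animals against 10.8, 7.7, 11.7, 6.9 and 6.8 in the 28 dpi animals. The call for Psmb10 was lost without A4-3 or A4-4 and that for Psmb7 without A3-3, all 28 dpi animals. At 4 dpi, where the log2 difference of Psmb8 from sham was 0.90, those of Psmb5, Psmb6 and Psmb7 were 0.08, 0.14 and 0.09, and the difference between these genes was not tested. Tap2, the partner chain of Tap1, had log2 differences from sham of 0.12 to 0.19 and was not called. Psmb9 had no row. Tapbpl, a relative of tapasin, lay above all sham animals at 4 dpi (3.6 to 4.3 against 2.6 to 3.5), and the chaperone Canx lay below them at 28 dpi (294.1 to 349.1 against 362.9 to 387.8), with log2 differences of 0.30 (limma, adjusted p = 1.00) and -0.22 (limma, adjusted p = 0.00531).

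Among class II genes, the 6 genes of peptide supply included 2 SDEGs at the step from 14 to 28 dpi, both lower, beside 4.22% of all genes: Ctsl (-0.69; limma, adjusted p = 4.43e-05) and Ctss (-0.64; limma, adjusted p = 0.0152), cathepsins that degrade the invariant chain. Of the 31-base words of Ctsl, 28.2% occur in other genes (25.8% in Gm47123 on the opposite strand), so its value is uncertain. The call for Ctss was lost when any of 5 of the 10 animals was left out (range -0.78 to -0.50). Ctss read 16.1, 16.9, 19.7, 18.6 and 18.7 in sham, 36.0, 43.8, 22.9 and 35.9 at 4 dpi, and 35.7, 27.5, 29.4, 37.9 and 25.4 at 14 dpi. All animals of 4, 14 and 42 dpi (21.1 to 32.4 at 42 dpi) lay above all sham animals. Its log2 difference at 4 dpi was 0.89 ± 0.22 (limma, adjusted p = 0.128, exact permutation p = 0.00794), beside 0.90 for Psmb8. Of the same list, Ifi30, a lysosomal thiol reductase, and Ctsd lay above all sham animals at 14 dpi and Ctsb at 7 dpi, with log2 differences of 0.54, 0.32 and 0.15 that did not pass (limma, adjusted p = 0.392, 0.392 and 0.851). With Ctss this made 3 of 6 genes at 14 dpi, and 1 of 6 at 7 dpi, beside 1.11% and 0.388% of all genes. Of class II chains and peptide exchange, 2 of 6 listed genes had a row and 0 were called. H2-DMa, which exchanges the invariant chain fragment for a peptide, had log2 differences from sham of -0.14 to 0.39.

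**Figure D3:**
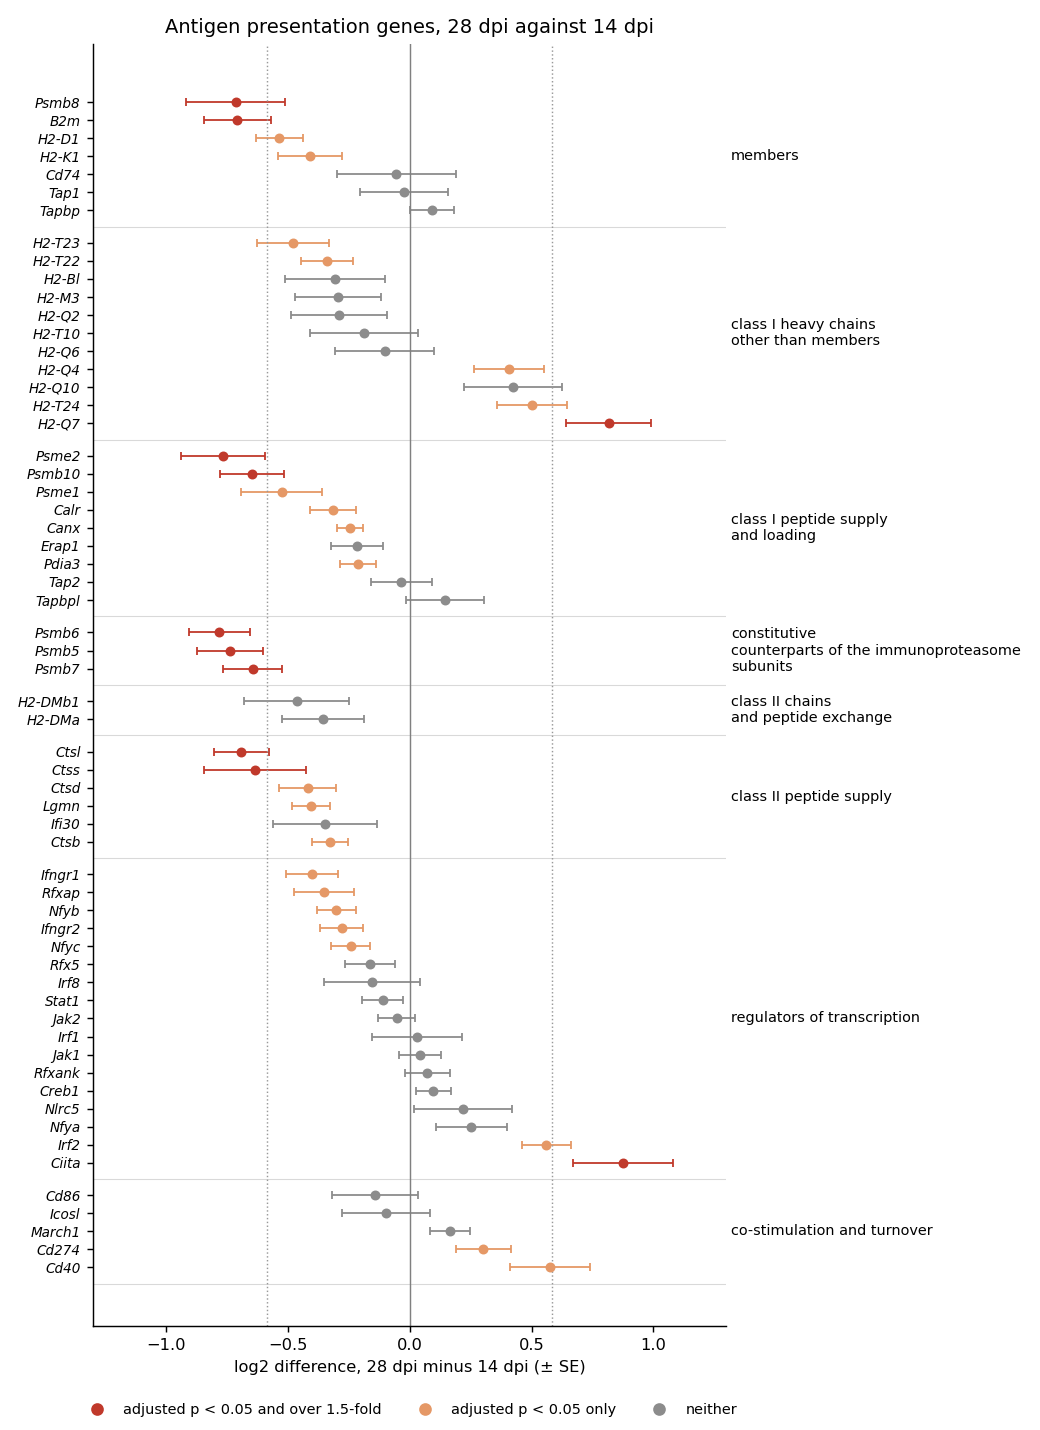
Log2 difference, 28 dpi minus 14 dpi (x axis, ± SE), of the 7 genes and of the 53 other pathway genes (y axis, by list), coloured by test result, with dotted lines at a fold of 1.5. SDEGs to the left include B2m, Psmb8 and the 3 constitutive proteasome subunits, and to the right only H2-Q7 and Ciita.

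The non-classical class I chain H2-Q7 rose from 14 to 28 dpi, where H2-K1 and H2-D1 fell. H2-Q7 read 5.6, 5.5, 5.9, 6.5 and 5.2 in sham, 6.0, 6.4, 4.0, 5.1 and 8.7 at 14 dpi, and 11.9, 12.2, 9.8, 11.2 and 8.8 at 28 dpi. Every 28 dpi animal was above every sham and every 14 dpi animal. Its log2 difference at 28 dpi was 0.85 ± 0.17 from sham (limma, adjusted p = 0.00200) and 0.82 ± 0.17 from 14 dpi (limma, adjusted p = 0.000479, exact permutation p = 0.00794). With the Rn18s-rs5 covariate the difference from sham was 0.57 (limma, adjusted p = 0.109) and that from 14 dpi 0.72 (limma, adjusted p = 0.00148). H2-Q7 was the only SDEG of 11 measured heavy chains outside the 7 genes in either comparison, beside 4.64% and 11.8% of all genes, and 39.2% of its 31-base words occur in other genes, 22.4% in H2-Q10. H2-Q4 and H2-T24 were higher than sham at 28 dpi by adjusted p only (0.44 and 0.41 on the log2 scale), and H2-Q4 shares 53.0% of its words. From 14 to 28 dpi 3 of 11 chains were higher and 2 of 11 lower by adjusted p, beside 21.0% and 21.9% of all genes, with a median log2 difference of -0.19. The lower ones were H2-T22 (-0.34; limma, adjusted p = 0.0104) and H2-T23 (-0.48; limma, adjusted p = 0.0105). Of the words of H2-T22, 67.4% occur in other genes (47.2% in H2-T10 and 27.7% in A930015D03Rik on the opposite strand), and 25.8% of those of H2-T23 do, so their values are uncertain. H2-T23 read 6.1 to 7.2 at 14 dpi, above all sham animals (3.9 to 5.9), and H2-T24 read 6.8 to 10.3 at 42 dpi, above 5.1 to 6.1 in sham.

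Among 17 regulators of transcription, 1 was an SDEG against sham at 28 dpi and 1 at the step from 14 to 28 dpi, beside 4.64% and 11.8% of all genes. Nlrc5, the transactivator of class I genes, read 0.4, 0.6, 0.5, 0.9 and 0.5 in sham, 1.2, 1.7, 1.0 and 1.8 at 4 dpi, and 1.1, 2.5, 1.2, 1.3 and 0.8 at 28 dpi. Its log2 difference was 0.83 ± 0.21 at 4 dpi (limma, adjusted p = 0.145), with no overlap, and 0.76 ± 0.20 at 28 dpi (limma, adjusted p = 0.00839), a call lost without the 28 dpi animal A3-3 (0.57). Ciita, the transactivator of class II genes, read 2.0, 1.2, 1.3, 1.8 and 1.1 at 14 dpi and 2.1, 3.1, 3.6, 3.3 and 3.5 at 28 dpi, against 2.3, 1.8, 1.6, 2.4 and 2.4 in sham. Ciita rose from 14 to 28 dpi by a log2 difference of 0.87 ± 0.20 (limma, adjusted p = 0.00117), and at 28 dpi it differed from sham by 0.47 (limma, adjusted p = 0.0873). Beside the 0.76 of Nlrc5 at 28 dpi, the log2 differences of H2-K1, H2-D1 and B2m from sham were -0.03, -0.21 and -0.10, and the difference between these genes was not tested. Irf8, an interferon regulatory factor of myeloid cells, read 1.3 to 1.7 in sham and 2.3 to 5.5 at 4 dpi without overlap, with a log2 difference of 0.96 ± 0.21 (limma, adjusted p = 0.0540). At 7 dpi it read 1.8 to 3.3, again above all sham animals. Jak2, a kinase of the interferon receptors, lay below all sham animals at 4 and 7 dpi, with log2 differences of -0.23 and -0.19 that did not pass.

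Of 5 measured genes of co-stimulation and turnover, Cd40, a receptor of antigen presenting cells, was the SDEG against sham at 28 dpi, with a log2 difference of 0.65 ± 0.16 (limma, adjusted p = 0.00671) and values of 2.8 to 4.5 against 1.6 to 2.6. That call was lost without the sham animal A12-1 (0.58) or the 28 dpi animal A3-3 (0.57). Cd86, a co-stimulatory ligand, read 1.0 to 1.7 at 4 dpi against 0.3 to 0.8 in sham, with a log2 difference of 0.69 ± 0.19 (limma, adjusted p = 0.238). Cd274, an inhibitory ligand, lay above all sham animals (3.1 to 4.5) at 7 dpi (4.7 to 5.3) and 42 dpi (4.6 to 5.6), and March1, a ubiquitin ligase that removes class II and Cd86 from the surface, at 42 dpi (16.3 to 21.0 against 12.2 to 15.5). These differences at 7 and 42 dpi did not pass (limma, adjusted p = 0.732 and 0.111 for Cd274, 0.0989 for March1), whereas at 28 dpi, where both overlapped the sham range, Cd274 (0.48; limma, adjusted p = 0.00395) and March1 (0.23; limma, adjusted p = 0.0389) were higher by adjusted p. In time order, 6, 4, 4, 3 and 4 of the 53 genes had a stroke group wholly above or wholly below sham. The share of all genes wholly above was 1.09%, 0.388%, 1.11%, 6.15% and 2.21%, and the share wholly below is not given here. Over the 53 genes, the SDEGs against sham were 0 at 4, 7, 14 and 42 dpi and 3 at 28 dpi, all higher (H2-Q7, Nlrc5 and Cd40), beside 4.15% of all genes higher and 0.488% lower. By adjusted p alone 8 of 53 were higher and 11 of 53 lower at 28 dpi, beside 11.9% and 13.0% of all genes. From 14 to 28 dpi 2 of 53 were SDEGs higher and 7 of 53 lower, beside 7.56% and 4.22%, and by adjusted p alone 7 of 53 were higher and 21 of 53 lower, beside 21.0% and 21.9%. With the Rn18s-rs5 covariate the SDEGs were 0 of 53 against sham at 28 dpi and 2 higher and 6 lower from 14 to 28 dpi, beside 0 and 10.7% of all genes in the same fit. Without the 8 animals above 200000 they were 0 of 53 and 1 of 53 (Irf2, higher), beside 0.0235% and 1.75% of all genes, with a 28 dpi arm of 1 animal whose spread is taken from the other groups.

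**Figure D4:**
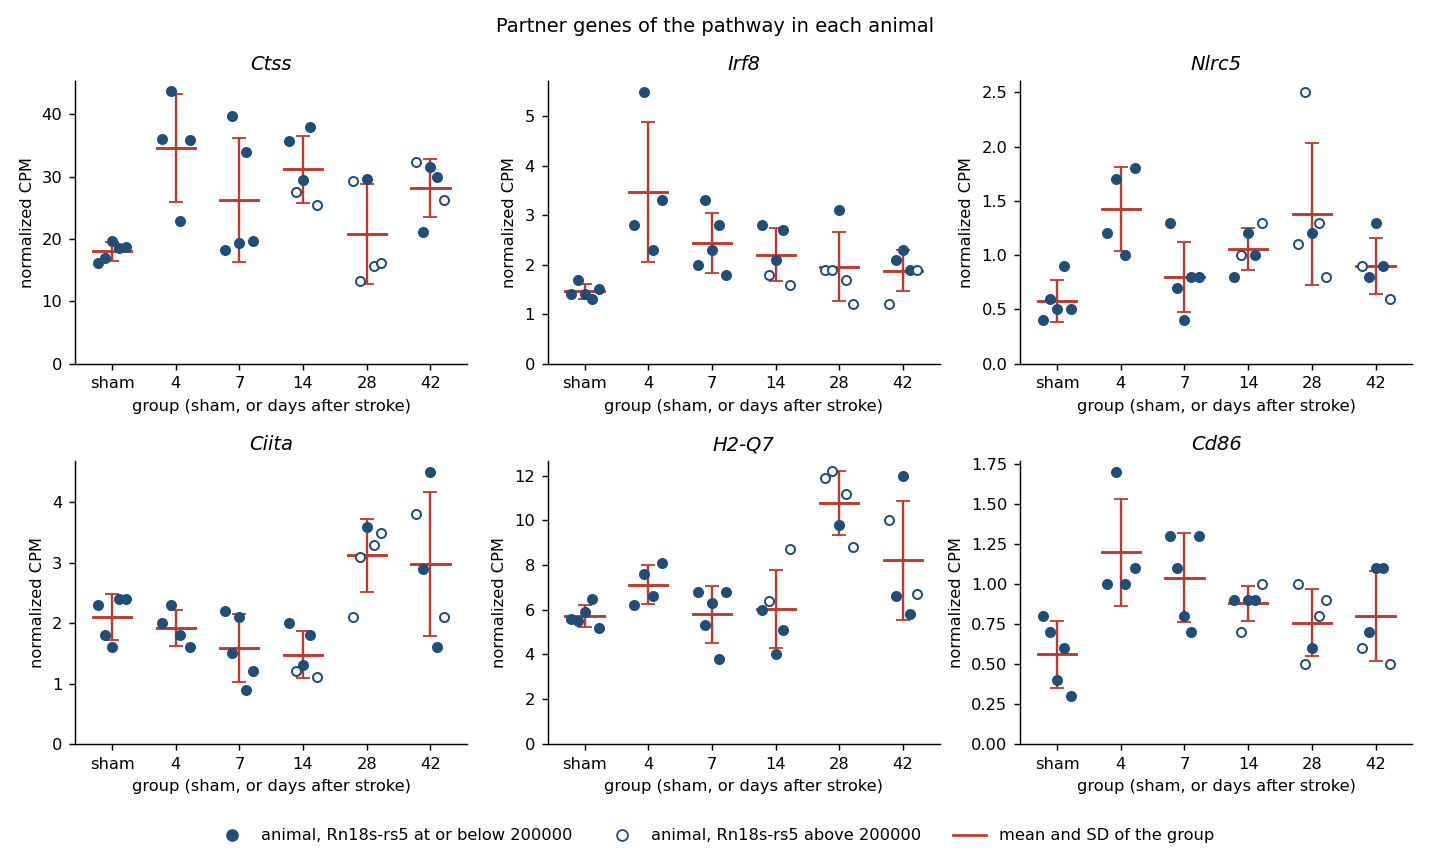
Normalized CPM (y axis, from 0) of 6 partner genes in each animal, by group (x axis), with points, open symbols and red lines as in the plot of the 7 genes. Ctss, Irf8, Nlrc5 and Cd86 lie above the sham range in all 4 animals of 4 dpi, while H2-Q7 and Ciita are high at 28 dpi.

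Markers of cell types that the tissue could hold were read in the same fit. Microglia markers (10 of 10 with a row) summed to 121.6 to 139.4 in sham, 149.2 to 220.7 at 4 dpi, 136.8 to 175.8 at 14 dpi and 121.7 to 161.3 at 28 dpi. At 4 dpi all 10 had positive log2 differences and Csf1r was an SDEG (0.74; limma, adjusted p = 0.00915). From 14 to 28 dpi 3 of 10 were lower by adjusted p, P2ry12 and Tmem119 among them, and 1 was higher (Sall1), with 2 of 10 positive and a median log2 difference of -0.21, beside 21.9% of all genes lower and 21.0% higher. Against sham at 28 dpi 3 of 10 were higher and 0 lower by adjusted p, beside 11.9% and 13.0% of all genes. There 6 of 10 were positive, with a median of 0.12. Of 5 astrocyte markers, Gfap was an SDEG at 4 dpi (1.18; limma, adjusted p = 0.0480), beside 0.0941% of all genes, and the list had 4 of 5 positive and a median of 0.15. At 28 dpi 2 of 5 were lower than sham by adjusted p (Aqp4 and Aldh1l1; -0.26 and -0.20), beside 13.0% of all genes. Endothelium markers (6 of 6) summed to 121.5 to 145.3 in sham, 121.0 to 146.0 at 14 dpi and 121.5 to 185.7 at 28 dpi. From 14 to 28 dpi Ly6c1 was an SDEG lower (-0.65; limma, adjusted p = 0.000123) and Flt1 was higher by adjusted p only (0.48), with 4 of 6 positive and a median of 0.20. Of the B cell markers 2 of 6 had a row, and they summed to 17.7 to 32.5. At 28 dpi Ms4a1, the B cell surface protein CD20, was an SDEG higher than sham (log2 difference 0.83; limma, adjusted p = 0.00531) and than 14 dpi (0.63; limma, adjusted p = 0.0139), whereas the immunoglobulin chain Ighm had log2 differences of -0.10 and -0.36 that did not pass. Among T and NK cell markers 3 of 7 had one, with sums of at most 5.1 in every group. All 3 had positive log2 differences from 14 to 28 dpi (median 0.43), and Cd8a was an SDEG (means 0.76 and 1.46; 0.61; limma, adjusted p = 0.0453). Markers of monocytes and neutrophils (2 of 6) summed to at most 2.3. Dendritic cell markers (3 of 6) summed to 32.5 to 43.6 in sham and 32.3 to 47.1 after stroke, and border macrophage markers (3 of 5, Lyve1 and Pf4 without a row) to 4.1 to 6.0 and 3.3 to 7.3. Of the dendritic cell markers, Xcr1 was an SDEG higher at 28 dpi than in sham (0.76; limma, adjusted p = 0.0155) and than at 14 dpi (0.68; limma, adjusted p = 0.0153), and Zbtb46 was higher than sham by adjusted p only (0.27). Of the border macrophage markers, Ms4a7 was an SDEG higher from 14 to 28 dpi (0.83; limma, adjusted p = 0.000871) and Cd163 was higher by adjusted p only (0.49), with a median of 0.49 over the 3. In all, 1 marker of each of these 4 lists was an SDEG higher from 14 to 28 dpi, beside 7.56% of all genes, at the step at which H2-Q7 and Ciita rose. Xcr1 and Ms4a1 were higher than sham at 28 dpi, as H2-Q7, Nlrc5 and Cd40 were, beside 4.15% of all genes. The means of the 4 SDEG markers were at most 1.86 in these groups. Oligodendrocyte markers (5 of 5) were lower at 28 dpi: against 14 dpi 4 of 5 were lower by adjusted p and 0 of 5 positive, with a median log2 difference of -0.36, beside 21.9% of all genes. Against sham 3 of 5 were lower and 0 of 5 positive, with a median of -0.42, beside 13.0% of all genes lower. They summed to 5943.2 to 7401.9 at 14 dpi and 4250.6 to 6264.8 at 28 dpi. Neuron markers (7 of 7) were present in every group, with 1 higher and 1 lower by adjusted p from 14 to 28 dpi. The pituitary genes Prl, Gh and Pomc summed to 0.2 to 0.7 in sham, 2.2 to 17.3 at 4 dpi and 0.5 to 28.0 at 7 dpi. They summed to 1.2 to 7.7 at 14 dpi, 0.2 to 14.4 at 28 dpi and 0.3 to 3.5 at 42 dpi. All animals of 4 and 14 dpi thus lay above all sham animals, as they did for B2m and Psmb8. None of these pituitary genes passed by adjusted p at any time. The part of cell composition in the MHC values was not tested.

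Within groups, after each group's mean was subtracted, the closest member pairs over the 29 animals were those of the 3 structural class I genes. Pearson's r of log2 values was 0.70 between H2-K1 and H2-D1, 0.72 between H2-K1 and B2m and 0.79 between H2-D1 and B2m, and lay between -0.22 and 0.44 for the other pairs. Many of the other pairs include Psmb8 or Tap1, low genes in which rounding weighs more. The genes outside the pathway with the most similar within-group pattern were, for B2m, Ndufb9 (0.93), Rps23 (0.93) and Rpl7a (0.92), for H2-D1, Gstp1 (0.88), Flot1 (0.88) and Polr2j (0.86), and for H2-K1, Mrps11 (0.87), Anapc11 (0.82) and Mrps23 (0.82). Each of these was higher than any r between members, and the usual r of genes at such levels was not computed. The nearest genes were Cat (0.70) for Psmb8, Snx11 (0.80) for Tap1 and Btbd2 (0.77) for Tapbp. These values are the highest of 11143 genes compared and are given as a description. The animals share library preparation and scaling, so part of any r can come from values that all genes of an animal have in common.

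**Figure D5:**
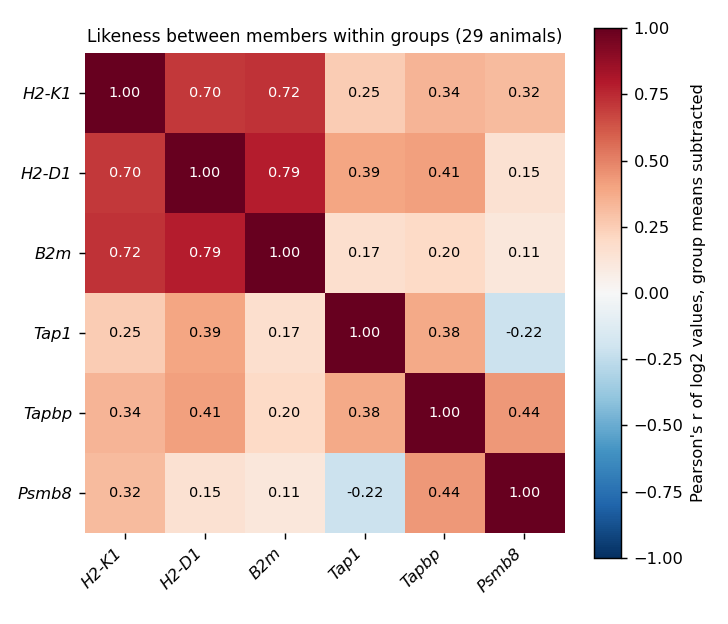
Pearson's r of log2 values between 6 of the genes (both axes) after subtracting group means, over 29 animals, with colour from -1 to 1. H2-K1, H2-D1 and B2m stand at 0.70 to 0.79 with each other, and Psmb8 and Tap1 stand at -0.22.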

How the data were processed

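RNA of the intermediate cervical laminae was sequenced after ribosomal depletion with a kit that does not mark strand. Per the paper's methods and the submitters' processing notes, the authors quantified reads against mm10 with SALMON, summarised them with Tximport, normalized them with edgeR 3.14.0 under R 3.4.1 and removed genes of low expression. The deposited score of a gene is its normalized CPM, given to the nearest 0.1. Read counts were not used here, an animal's values sum to between 714597 and 2256910, and the depth is unknown, so precision comes from the spread between animals. Count tests were therefore replaced by limma. Columns of the authors' own fold changes and p-values were not used. Groups came from the sample titles, and Ctrl was read as sham from the paper.

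Values were analysed as log2(value + 0.5) in 1 model of 6 group means with limma 3.58.1 in R 4.3.3 (eBayes with a mean-variance trend), adjusted by Benjamini-Hochberg over 16995 genes and tested on simulated data. An SDEG passed both limits, 0.05 for the adjusted p and 1.5 for the fold. Exact two-sided permutation tests compared means of log2 values. Where nothing says that samples were handled in separate batches, p-values measure only the spread between these animals. The members and lists were chosen with earlier results of these data known. Named genes were all members, the partners Tap2, Psmb9, Psmb10, H2-DMa, Nlrc5 and Ciita, and, of the pathway lists, genes called or with no overlap between a stroke group and sham; H2-Q4, H2-T22, Irf2 and genes of the marker lists were named after their values were seen. For likeness, the 3 genes of mean value at least 5 with the highest within-group r were taken for each member of mean value at least 1. Transcript lengths came from GENCODE M21 (16919 of 16995 genes matched). Alternatives were other scalings, pseudocounts of 1 and 0.1, a mean value of at least 1, no trend, only the 2 groups compared, the label unit (A3 in A3-1) as a random block, an Rn18s-rs5 covariate, no fold limit and each animal left out. Added after seeing the data were the exclusion of animals with Rn18s-rs5 above 200000 and a correction for length and GC content. Python 3.11.15 with pandas 2.3.3, numpy 2.4.6 and scipy 1.17.1 was used for tables and permutation tests.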

Additional observations from a re-analysis of the deposited data

Results flagged for a closer look

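At 14 dpi the highest B2m value, 53.6 in animal A6-2, stood apart from the next, 44.2. It was the only such value among 108 groups of 4 or 5 animals checked over 18 genes, where chance gives about 1 in 20.

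The other results taken up here are differences between 14 and 28 dpi, tested as such in the limma fit. H2-K1 (-0.41), H2-D1 (-0.54), B2m (-0.71) and Psmb8 (-0.71) were lower at 28 dpi on the log2 scale. The proteasome genes Psmb10 (-0.65), Psme2 (-0.77), Psmb5 (-0.74), Psmb6 (-0.78) and Psmb7 (-0.65) and the cathepsins Ctss (-0.64) and Ctsl (-0.69) were lower too. H2-Q7 (0.82) and Ciita (0.87) were higher.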

How the results depend on the processing

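With 0 members called against sham, the counts at 4, 7, 14 and 42 dpi stayed at 0 under every alternative run. At 28 dpi 1 member was called with median centring, the label unit as a random block or the length and GC correction (Cd74 in each; 5.28%, 4.82% and 4.19% of all genes) and with equal sums without Rn18s-rs5 (H2-D1; 30.0% of all genes), and 4 with equal sums that include ribosomal RNA (H2-K1, H2-D1, B2m and Tapbp, all lower), where 65.2% of all genes were called. Leaving out single animals gave 0 to 1. The F test called 4 to 5 members with single animals left out, and 0 without the animals above 200000 for Rn18s-rs5, where 0.0647% of all genes were called (31.6% with all animals). From 14 to 28 dpi the count of 2 became 4 with no fold limit (43.0% of all genes), 1 with equal sums including ribosomal RNA (4.21%) or a pseudocount of 1 (8.40%; B2m in both) and with the length and GC correction (9.53%; Psmb8), 0 without the animals above 200000 (1.75%; 1 animal left at 28 dpi, B2m -0.35 and Psmb8 -0.43), and 1 to 3 with single animals left out (1 without A4-4, Psmb8).

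Equal sums moved the median of all genes by -0.48, -0.73 and -0.52 at 14, 28 and 42 dpi (log2 against sham) with ribosomal RNA and by -0.29, -0.44 and -0.32 without Rn18s-rs5. A sign was counted as turned only where the value exceeded its SE in either fit. With ribosomal RNA, the turned values at 14 dpi were -0.12 for H2-K1, -0.19 for H2-D1 and -0.47 for Tapbp, at 28 dpi -0.47 for Tap1, -0.64 for Tapbp, -0.34 for Psmb8 and -0.0085 for Cd40, at 42 dpi -0.34 for H2-K1, -0.52 for H2-D1, -0.23 for B2m and -0.35 for Tap1, and -0.17 for Tapbp from 14 to 28 dpi. Without Rn18s-rs5 they were -0.26 for Tapbp at 14 dpi, -0.24 for Tap1 and -0.34 for Tapbp at 28 dpi, -0.13 for H2-K1, -0.30 for H2-D1 and -0.015 for B2m at 42 dpi, and -0.073 for Tapbp from 14 to 28 dpi. H2-K1 at 28 dpi was 0.16 with the covariate. Without the animals above 200000, 28 dpi minus sham was 0.46 for H2-K1, 0.12 for H2-D1 and 0.32 for B2m, H2-K1 was 0.0010 from 14 to 28 dpi, and B2m was -0.045 from 28 to 42 dpi. The cause was not tested. Of the single values of genes, 47 lost and 10 gained a call under some alternative, and 1170 kept direction and side of the threshold. No paired analysis was possible because the groups share no replicate numbers. The label unit is the part of an animal's name before the dash, and the sources used here do not say what it marks. Each unit lies within 1 group, except A3 (28 and 42 dpi), so unit and group cannot be told apart and the random block rests on animals within groups.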
